A study of Homo sapiens with 24 samples.

Results

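The 6 genes described here, CCDC117, BRI3, LIPA, NOS3, UAP1L1 and COL1A1, were selected on their response to small interfering RNA (siRNA) against TFEB and TFE3 in HepG2 cells. A gene was chosen by its knockdown contrast, at a limma adjusted p under 0.05 with 1 sign in at least 2 of 3 guide backgrounds. Of 11927 features in the table, 11152 were tested and 8 met this rule (0.0717%): the 6 members and the targets TFEB and TFE3 themselves. All 6 members passed the filter on low counts. The knockdown values below are therefore the values that chose the genes, and they are given as a description, with no test.

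HepG2 is an established human liver cancer line. Cells were transduced with lentiCRISPRv2, which delivers Cas9 and 1 guide RNA, and were selected with puromycin. The guide was sgCtrl, aimed at the AAVS1 safe-harbour site, or sgKEAP1-1 or sgKEAP1-2, aimed at KEAP1. Each of the 3 populations then received a non-targeting siRNA pool (siNC) or a mixture of SMARTpool siRNAs against TFEB and TFE3 (siTFEB/siTFE3) by Dharmafect reverse transfection, and RNA was taken at 72 h, which gave 6 groups of 4 libraries. Every group, the controls included, thus carried Cas9, a guide, puromycin selection and a transfected siRNA pool. The methods do not mention clones, and the labels do not say whether the 4 libraries of a group came from separate cultures, so p-values measure the spread between these libraries. TFEB and TFE3 were always knocked down together and by the same pools, so loss of TFEB, loss of TFE3 and any action of the pools on other transcripts cannot be told apart in any value below.

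TFEB and TFE3 are basic helix-loop-helix leucine zipper transcription factors of the MiT/TFE family. They are held in the cytoplasm when mTORC1 phosphorylates them at a nutrient-rich lysosome and, once released, bind E-box sequences in the promoters of genes for lysosomal enzymes, lysosomal membrane proteins and autophagy. KEAP1 is the adaptor that hands the stress-response factor NRF2 to a ubiquitin ligase. NRF2 binds the antioxidant response element.

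The members do not share a single known role. LIPA encodes lysosomal acid lipase, which splits cholesteryl esters and triglycerides in the lysosome, and BRI3 encodes a small membrane protein found on lysosomes. NOS3 is endothelial nitric oxide synthase, UAP1L1 resembles the enzyme UAP1 that makes UDP-N-acetylglucosamine, COL1A1 is a chain of type I collagen, and CCDC117 is a coiled-coil domain protein. On GRCh37, CCDC117 (NCBI gene ID 150275) spans chr22:29168662-29185289 on the plus strand and BRI3 (ID 25798) chr7:97881691-97939753 on the plus strand. LIPA (ID 3988) lies at chr10:90973326-91174314 on the minus strand, and NOS3 (ID 4846) at chr7:150688105-150711676 on the plus strand. UAP1L1 (ID 91373) lies at chr9:139971969-139978991 on the plus strand and COL1A1 (ID 1277) at chr17:48261462-48278993 on the minus strand. All 6 are annotated as protein-coding and no 2 of them are neighbours.

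Promoter sequence is shown because TFEB and TFE3 act through promoter sites. RefSeq promoters (GRCh38.p14, 250 bases before to 50 after a start) covered 4 of the 6 members in 8 windows, and COL1A1 and UAP1L1 had no entry. The 250 bases before the start are given for BRI3, the only member covered whose promoter window held the E-box form CACGTG. As windows without any of the motifs searched, they are also given for the first start of CCDC117 and the most downstream start of LIPA. E-box forms other than CACGTG and TCATGTG were not searched. Capitals mark CACGTG with its overlapping extension by A, which read on the other strand is TCACGTG, and the antioxidant response element TGACNNNGC. Both strands were searched.
BRI3 (chr7:98281436-98281685, plus strand): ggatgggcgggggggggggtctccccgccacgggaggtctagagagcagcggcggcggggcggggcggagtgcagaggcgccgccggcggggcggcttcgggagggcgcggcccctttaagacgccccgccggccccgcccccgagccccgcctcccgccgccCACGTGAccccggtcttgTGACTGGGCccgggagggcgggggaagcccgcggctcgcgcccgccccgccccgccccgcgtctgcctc
CCDC117 (chr22:28772445-28772694, plus strand): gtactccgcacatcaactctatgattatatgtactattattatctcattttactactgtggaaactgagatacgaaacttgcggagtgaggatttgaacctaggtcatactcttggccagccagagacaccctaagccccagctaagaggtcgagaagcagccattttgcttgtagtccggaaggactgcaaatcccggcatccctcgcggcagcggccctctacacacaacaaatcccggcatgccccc
LIPA (chr10:89251776-89252025, minus strand): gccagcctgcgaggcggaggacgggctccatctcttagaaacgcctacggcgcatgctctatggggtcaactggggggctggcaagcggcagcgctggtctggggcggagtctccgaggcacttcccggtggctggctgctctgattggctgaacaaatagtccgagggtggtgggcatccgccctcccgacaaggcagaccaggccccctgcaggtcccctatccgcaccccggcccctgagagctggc

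In the BRI3 window CACGTG began at position -87 from the start and the antioxidant response element letters at position -69. CACGTG was found in 1 of the 8 member windows, the BRI3 window, and in 7.26% of 35116 promoters of the same length. TCACGTG was also found in the BRI3 window alone, against 3.71% of all promoters. The palindrome TCACGTGA, present in 0.98% of promoters, and TCATGTG, present in 2.92%, were in none of the 8 windows. TGACNNNGC was found in 3 windows, 1 each of BRI3, CCDC117 (position -180 from a start that is not shown) and LIPA (position -195 from a start that is not shown), against 13.3% of all promoters. NOS3 held none of the 5 motifs in its 2 windows. Counted by gene, CACGTG was in a promoter of 1 of 4 members, of 12.7% of all tested genes with a promoter entry and of 5 of 13 genes (38.5%) in a list of MiT/TFE feedback and autophagy targets. TGACNNNGC was in a promoter of 3 of 4 members, of 19.6% of those tested genes and of 6 of 13 genes (46.2%) in that list. In lists of lysosomal hydrolases and lysosomal membrane proteins the share with TGACNNNGC was 35.7% and 36.0%. These matches are descriptions of letters in short windows, and binding was not measured.

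Total reads per library ranged from 3527000 to 4600951. All knockdown libraries were below all siNC libraries of their background for both targets. TFE3 in knockdown libraries stood at 35.7%, 29.4% and 30.0% of the siNC mean in sgCtrl, sgKEAP1-1 and sgKEAP1-2 cells, and TFEB at 24.3%, 24.2% and 32.2%, with limma adjusted p of 0.0858 for TFEB in sgCtrl cells and under the threshold in the other 5 contrasts. KEAP1 RNA had siNC means of 84.9, 53.8 and 77.4 normalised reads per 1000000 (CPM) in the same order. Tested against sgCtrl as an average over both siRNAs, it was lower with sgKEAP1-1 (limma adjusted p 4.13e-07) and did not pass with sgKEAP1-2 (limma adjusted p 0.184). A Cas9 cut need not lower RNA. The siNC means of TFE3 were 33.3, 49.1 and 54.9 CPM in the same order, and those of TFEB 10.9, 11.9 and 10.5 CPM. Averaged over both siRNAs, TFE3 was higher with sgKEAP1-2 by 0.61 on the log2 scale (limma adjusted p 0.0110). With sgKEAP1-1 TFE3 was at 0.44 and did not pass (limma adjusted p 0.0914). All 9 hepatocyte markers were present (ALB and AFP among them), and none of the 8 endothelial markers was in the table. On the second principal component (11.7% of the variance), 2 libraries stood apart from the rest, siNC; sgKEAP1-1 replicate 1 at 54.09 and siTFEB/siTFE3; sgKEAP1-2 replicate 1 at 43.06, while the other 22 lay between -12.6 and 5.93. Member values in the backgrounds that hold these 2 libraries are also given without them. Both belong to replicate number 1, and the table's column names give each replicate number 1 prefix, shared by all 6 groups, whose meaning is not stated. In bulk RNA, fewer cells that express a gene and less RNA per cell cannot be told apart.

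CCDC117 showed the most even response. It fell to 48.4%, 44% and 46.5% of its siNC mean in sgCtrl, sgKEAP1-1 and sgKEAP1-2 cells, and it was the gene with the smallest p in each of the 3 contrasts. In sgCtrl cells the 4 siNC libraries read 70.6, 82.0, 70.1 and 79.5 CPM and the 4 knockdown libraries 31.6, 36.9, 38.2 and 39.4 CPM. The siNC libraries of sgKEAP1-1 cells read 72.3, 68.9, 64.4 and 65.1 CPM against 34.2, 28.5, 27.8 and 28.6 CPM with knockdown. In sgKEAP1-2 cells the values were 68.9, 63.2, 64.6 and 64.0 CPM against 36.8, 31.5, 23.9 and 29.0 CPM. No knockdown library of any background reached a siNC library of any background for this gene, since the highest knockdown value was 39.4 CPM and the lowest siNC value 63.2 CPM. The log2 fold changes were -1.05 (SE 0.11), -1.19 (SE 0.12) and -1.13 (SE 0.12), with selecting adjusted p of 1.10e-05, 2.14e-06 and 5.85e-06.

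BRI3, the lysosomal membrane protein with CACGTG in its promoter window, fell less. Its siNC libraries in sgCtrl cells read 109, 120, 128 and 138 CPM, and its knockdown libraries 82.6, 113, 94.1 and 102 CPM, so 3 of the 4 knockdown libraries were below every siNC library. In sgKEAP1-1 cells it read 168, 138, 123 and 163 CPM against 96.7, 85.6, 82.7 and 85.4 CPM. In sgKEAP1-2 cells the values were 145, 164, 165 and 144 CPM against 76.1, 89.8, 98.1 and 91.3 CPM. The groups did not overlap in either population with a KEAP1 guide, where knockdown left 59.2% and 57.4% of the siNC mean, against 79.1% in sgCtrl cells. The log2 fold changes were -0.34 (SE 0.12), -0.75 (SE 0.12) and -0.80 (SE 0.12), with selecting adjusted p of 0.913, 0.00293 and 4.72e-04. The knockdown means were close to one another, at 97.8 ± 12.8, 87.6 ± 6.20 and 88.8 ± 9.22 CPM (SD, n = 4 each), while the siNC means were 124 ± 12.4, 148 ± 21.5 and 155 ± 11.6 CPM (SD, n = 4 each). BRI3 has processed pseudogene copies, and how reads shared with them were counted is not given in the sources used here.

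LIPA, the lysosomal acid lipase gene, was lower in all 4 knockdown libraries than in any siNC library of the same background. In sgCtrl cells it read 39.9, 52.4, 58.3 and 56.8 CPM with siNC and 28.9, 37.7, 30.1 and 38.4 CPM with knockdown. The sgKEAP1-1 libraries read 34.5, 57.2, 52.8 and 54.2 CPM against 27.9, 29.9, 23.0 and 28.6 CPM. The sgKEAP1-2 libraries read 53.9, 46.3, 56.3 and 45.8 CPM against 22, 31.7, 30.9 and 24.6 CPM. Knockdown thus left 65.2%, 55.0% and 54.0% of the siNC mean. The lowest siNC value, 34.5 CPM, came from the sgKEAP1-1 library that stood apart on the second component. The log2 fold changes were -0.61 (SE 0.16), -0.83 (SE 0.17) and -0.89 (SE 0.17), with selecting adjusted p of 0.398, 0.0461 and 0.0151. Without the libraries that stood apart, the changes in sgKEAP1-1 and sgKEAP1-2 cells were -0.999 and -0.80.

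NOS3, the endothelial nitric oxide synthase, had siNC means of 9.21 ± 1.33 CPM with sgCtrl, 44.8 ± 10.7 CPM with sgKEAP1-1 and 47.7 ± 14.2 CPM with sgKEAP1-2 (SD, n = 4 each). In sgCtrl cells it read only 9.65, 10.7, 8.90 and 7.55 CPM with siNC and 2.63, 6.76, 3.94 and 8.42 CPM with knockdown, or 10 to 43 reads a library. In sgKEAP1-1 cells it read 31.8, 47.2, 42.7 and 57.6 CPM against 18.2, 20.9, 20.3 and 18.8 CPM. The sgKEAP1-2 libraries read 29.6, 62.4, 54.7 and 44 CPM against 10.8, 19.9, 25 and 18.3 CPM. The groups were apart in both populations with a KEAP1 guide, and in sgCtrl cells 3 of the 4 knockdown libraries were below every siNC library. Knockdown left 59.1%, 43.7% and 38.8% of the siNC mean, with log2 fold changes of -0.86 (SE 0.41), -1.16 (SE 0.24) and -1.34 (SE 0.24) and selecting adjusted p of 0.9996, 0.0461 and 0.00718. Even under knockdown, every library with a KEAP1 guide was above the sgCtrl siNC mean of 9.21 CPM, at 10.8 CPM or more. The end of NOS3 overlaps the gene ATG9B on the other strand, and since the strand setting of the counting is not given in the sources used here, reads from the pair cannot be told apart.

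UAP1L1 was measured at few reads, 16 to 57 a library, but its groups did not overlap in any background. In sgCtrl cells the siNC libraries read 9.4, 8.98, 10.3 and 8.02 CPM and the knockdown libraries 5.53, 5.55, 4.86 and 7.43 CPM. The sgKEAP1-1 values were 14.4, 10.6, 10.1 and 10.6 CPM against 5.80, 5.88, 5.35 and 4.65 CPM. The sgKEAP1-2 values were 10.4, 11.0, 8.36 and 10.4 CPM against 5.57, 5.66, 6.13 and 3.71 CPM. About the same level was reached in each background, since knockdown means were 5.84 ± 1.11, 5.42 ± 0.564 and 5.27 ± 1.07 CPM (SD, n = 4 each). The log2 fold changes were -0.65 (SE 0.21), -1.05 (SE 0.21) and -0.93 (SE 0.21), with selecting adjusted p of 0.898, 0.0409 and 0.0492. Its paralog UAP1, the main enzyme of the step, was not a member: its change averaged over the 3 backgrounds was -0.10 (SE 0.08, limma adjusted p 0.651).

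COL1A1, a collagen chain and a fibroblast product, was the only member that was higher with knockdown. It was scarce in siNC cells, with 8 to 27 reads a library. In sgCtrl cells it read 4.83, 2.49, 4.59 and 2.59 CPM with siNC and 13.4, 5.79, 6.02 and 7.43 CPM with knockdown. In sgKEAP1-1 cells the values were 2.02, 7.50, 2.51 and 3.62 CPM against 9.67, 22.3, 17.1 and 17.7 CPM. In sgKEAP1-2 cells they were 3.39, 3.23, 2.03 and 6.21 CPM against 9.59, 14.3, 15.0 and 25.9 CPM. All 4 knockdown libraries were above every siNC library in each background, at 2.25, 4.27 and 4.36 times the siNC mean. The log2 fold changes were 1.12 (SE 0.46), 2.22 (SE 0.43) and 2.14 (SE 0.43), with selecting adjusted p of 0.942, 0.0367 and 0.0250. Its siNC means were nearly level over the guides, at 3.63 ± 1.25, 3.91 ± 2.49 and 3.72 ± 1.77 CPM (SD, n = 4 each). Of 8 fibroblast and stellate cell markers, 2 were in the table, PDGFRB and ACTA2; their summed level was 47.0 to 69.4 CPM with siNC and 46.3 to 66.1 CPM with knockdown, and PDGFRB fell on average by 0.94 on the log2 scale (SE 0.21, limma adjusted p 0.0132), in the direction opposite to COL1A1. ACTA2 was at 0.23 (adjusted p 0.212), and the part of these cells' genes in the COL1A1 value was not tested.

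**Figure D1:**
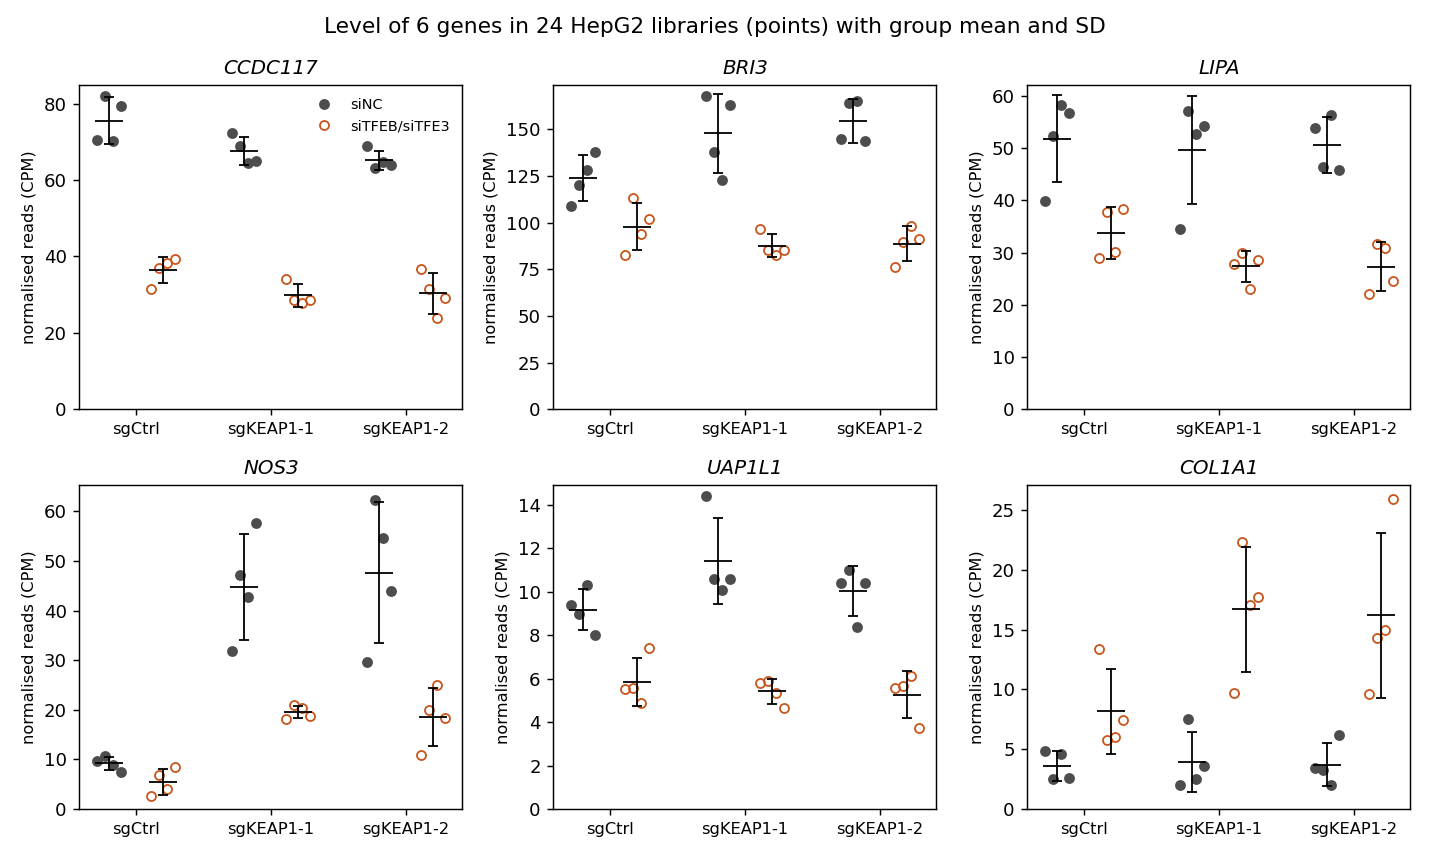
Level of each of the 6 genes in the 24 libraries, as normalised reads (CPM, vertical axis from 0) by guide (horizontal axis), with filled points for siNC and open points for siTFEB/siTFE3 and the group mean with its SD in black. The groups overlap only for BRI3 and NOS3 in sgCtrl cells, and the NOS3 siNC means are 9.21, 44.8 and 47.7 CPM in the order of the guides.

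Read together over libraries, 4 of 6 members did not overlap between siNC and knockdown in sgCtrl cells, where 3.44% of all tested genes did not overlap, and 6 of 6 did not in sgKEAP1-1 (5.01% of all genes) or sgKEAP1-2 cells (5.72%). All 3 backgrounds were free of overlap for 4 members (CCDC117, LIPA, UAP1L1 and COL1A1), against 0.224% of all genes. By adjusted p, 1 member passed in sgCtrl cells (0.0179% of all genes), 6 in sgKEAP1-1 cells (0.0897%) and 6 in sgKEAP1-2 cells (0.359%). Since the rule used these contrasts, nothing is read from these counts.

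**Figure D2:**
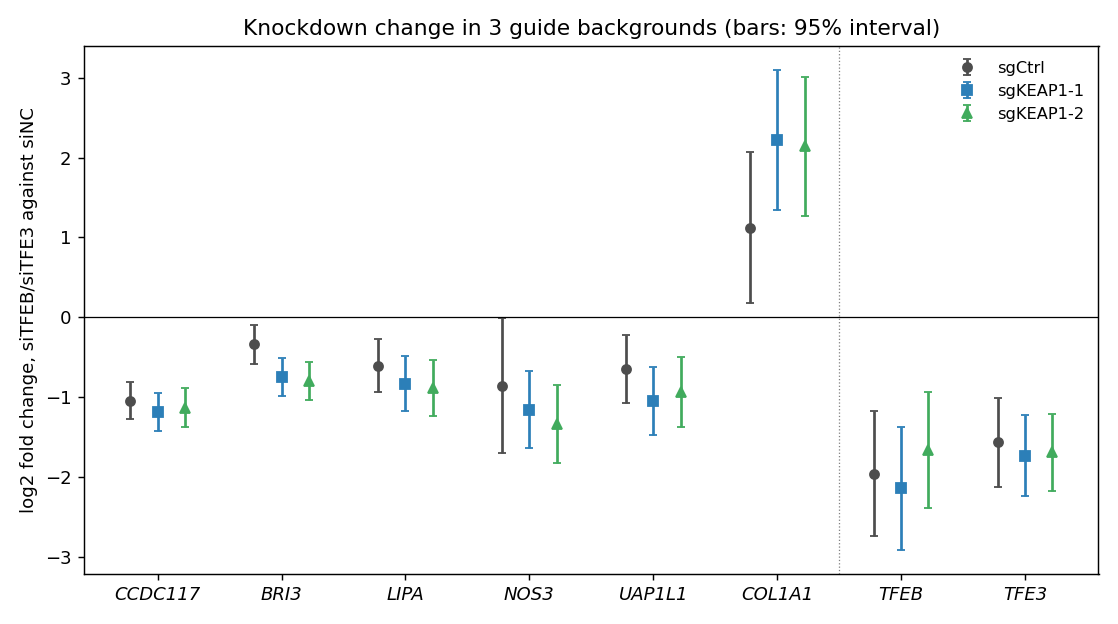
Log2 fold change of siTFEB/siTFE3 against siNC (vertical axis) for the 6 genes and, right of the dotted line, the siRNA targets TFEB and TFE3, in the 3 guide backgrounds, with bars for the 95% interval of the fit. CCDC117 runs from -1.05 to -1.19, 5 members lie below 0 in each background, and COL1A1 lies above 0.

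The distance from the threshold differed among members. CCDC117 and BRI3 met the rule in 24 of 24 fits that left out 1 library, COL1A1 in 10, NOS3 in 7, LIPA in 5 and UAP1L1 in 0. With the replicate number as a block, the rule was met by 18 genes, among them 5 members and not UAP1L1. The second smallest adjusted p, which decides membership, was 0.0492 for UAP1L1 and 0.0461 for LIPA and NOS3, just inside. Just outside were PDP2, a pyruvate dehydrogenase phosphatase, at 0.0566, the lysosomal ceramidase gene ASAH1 at 0.0644, SAT2 at 0.0702, ZNF114 at 0.0791 and SH3BGRL2 at 0.0792. The first 4 of these were lower with knockdown in all 3 backgrounds and SH3BGRL2 was higher in all 3. PDP2, for example, had log2 fold changes of -0.50, -0.61 and -0.58, so genes with like values lie on both sides of the rule. Without the 2 libraries that stood apart, the changes in sgKEAP1-1 and sgKEAP1-2 cells were -1.16 and -1.22 for CCDC117, -0.68 and -0.73 for BRI3, -1.32 and -1.14 for NOS3, -0.94 and -0.96 for UAP1L1 and 1.99 and 2.33 for COL1A1.

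The size of the response was compared between backgrounds as a description. The members' changes were smaller in sgCtrl cells than with either KEAP1 guide on the log2 scale. All members but CCDC117 met the rule only with the KEAP1 guides, which favours this order, and nothing is read from it. The sizes depend on single libraries, and the share of all genes with this order was not counted. The difference was widest in log2 terms for COL1A1, at 1.10 with sgKEAP1-1 (95% interval -0.19 to 2.39) and 1.02 with sgKEAP1-2 (-0.27 to 2.30). BRI3 fell further by 0.41 (95% interval of the difference -0.74 to -0.07) and 0.46 (-0.79 to -0.12). NOS3 differed by -0.30 (-1.28 to 0.67) and -0.48 (-1.46 to 0.50), LIPA by -0.22 (-0.70 to 0.26) and -0.28 (-0.76 to 0.20), and UAP1L1 by -0.41 (-1.01 to 0.20) and -0.28 (-0.90 to 0.33). CCDC117 differed least, by -0.14 (-0.48 to 0.19) and -0.09 (-0.42 to 0.25), and the second was 0.00093 without siTFEB/siTFE3; sgKEAP1-2 replicate 3. Without siTFEB/siTFE3; sgCtrl replicate 4 the NOS3 differences were -0.057 and -0.23, and without siTFEB/siTFE3; sgCtrl replicate 1 they were -0.57 and -0.75. Without siNC; sgCtrl replicate 1 the LIPA differences were -0.10 and -0.15, and without siTFEB/siTFE3; sgKEAP1-2 replicate 4 the second UAP1L1 difference was -0.14. Without the 2 libraries that stood apart, the differences with sgKEAP1-1 and sgKEAP1-2 were 0.86 and 1.20 for COL1A1, -0.35 and -0.39 for BRI3, -0.46 and -0.29 for NOS3, -0.39 and -0.20 for LIPA, -0.29 and -0.31 for UAP1L1 and -0.11 and -0.18 for CCDC117. The rule asked for a pass in 2 backgrounds, and for all members but CCDC117 these were the KEAP1 guides. Members were thus selected in part on where their change was large, and all differences share the sgCtrl libraries. Across all genes no difference of this kind passed for any of the 3 pairs of backgrounds, with 0 genes called by limma, edgeR or DESeq2 and between 304 and 516 genes at an unadjusted limma p under 0.05. Of 11152 tested genes, that is a smaller share than the 0.05 expected where no gene differs.

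The effect of the KEAP1 guides on the members, averaged over both siRNAs, came from contrasts that the rule did not use. It was tested for CCDC117 alone, the only member that met the rule in all 3 backgrounds. NOS3 met the rule only in the 2 backgrounds where its level was higher and the SE of its knockdown change smaller (0.24 against 0.41 in sgCtrl cells), so its guide change is given with no test. COL1A1 too met it only with the KEAP1 guides, where its knockdown means were 16.7 and 16.2 CPM against 8.17 CPM with sgCtrl. BRI3, LIPA and UAP1L1 also met it only with the KEAP1 guides, with limma adjusted p of 0.913, 0.398 and 0.898 in sgCtrl cells. The guide changes of COL1A1 and of these members are also given with no test. NOS3 was higher with sgKEAP1-1 by 2.10 on the log2 scale (SE 0.24) and with sgKEAP1-2 by 2.08 (SE 0.24), about 4.29-fold and 4.24-fold. Its median over 8 libraries was 26.3 CPM (range 18.2 to 57.6) with sgKEAP1-1 and 27.3 CPM (10.8 to 62.4) with sgKEAP1-2, against 7.99 CPM (2.63 to 10.7) with sgCtrl. All 8 libraries of each KEAP1 guide were above all 8 sgCtrl libraries, a separation seen in 5.60% and 8.29% of all tested genes in either direction. The share of all genes that passed was 21.0% for sgKEAP1-1 and 29.8% for sgKEAP1-2, so a pass alone is common here. CCDC117, the only member tested, passed with both guides. Without the 2 libraries that stood apart the NOS3 changes were 2.18 and 2.19. Hepatocyte markers moved with the guides as well, since 6 of 9 fell with each and their summed level was 23500 to 34400 CPM in sgCtrl libraries and 12900 to 19400 CPM in the rest, and their part in the NOS3 result was not tested. None of the 8 endothelial markers was in the table in any group.

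CCDC117 was lower with sgKEAP1-1 by 0.23 (SE 0.08, limma adjusted p 0.0450) and with sgKEAP1-2 by 0.26 (SE 0.08, limma adjusted p 0.0181), small beside its change with knockdown. The first of these was lost in edgeR (adjusted p 0.0507) and in 11 of 16 fits that left out 1 library, up to an adjusted p of 0.0998 without siTFEB/siTFE3; sgCtrl replicate 4. The second was lost in 1 of 16, at 0.0540 without siTFEB/siTFE3; sgKEAP1-2 replicate 3. Without the libraries that stood apart the changes were -0.25 and -0.30. The other members are given with no test. LIPA had log2 fold changes of -0.18 (95% interval -0.43 to 0.06) and -0.16 (-0.40 to 0.08). COL1A1 had 0.53 (-0.11 to 1.18) and 0.52 (-0.13 to 1.2). BRI3 stood at 0.05 (-0.12 to 0.22) and 0.10 (-0.07 to 0.26), and UAP1L1 at 0.10 (-0.20 to 0.41) and -0.02 (-0.32 to 0.29). An average over siRNAs can hide unlike shifts. From sgCtrl to sgKEAP1-1 and sgKEAP1-2, BRI3 means were 124, 148 and 155 CPM with siNC. With knockdown they were 97.8, 87.6 and 88.8 CPM. COL1A1 means were 3.63, 3.91 and 3.72 CPM with siNC and 8.17, 16.7 and 16.2 CPM with knockdown. The guide effect within siNC cells alone was not tested. Between the guides 0.117% of all genes passed, and CCDC117 did not (limma adjusted p 0.962).

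Genes of the pathways the members belong to were followed in the knockdown averaged over the 3 backgrounds, in which 1.39% of all genes passed as lower and 0.942% as higher. The members' own averaged changes, as a description, were -1.12 for CCDC117, -0.63 for BRI3, -0.78 for LIPA, -1.12 for NOS3, -0.88 for UAP1L1 and 1.83 for COL1A1, and without the libraries that stood apart -1.14, -0.58, -0.80, -1.10, -0.85 and 1.81 in that order. Around LIPA, 4 of the 41 other tested lysosomal hydrolases and activators fell and none rose. Among them were ASAH1 (-0.50), cathepsin B (CTSB, -0.45) and the peptidase TPP1 (-0.31). The list's median was -0.09, against 0.01 for all genes, and ASAH1 was the lowest of the 41, above LIPA at -0.78. Around BRI3, 1 of 29 other lysosomal membrane or lumenal cholesterol-transport genes fell, NPC2 (-0.34, limma adjusted p 5.96e-04), with a list median of -0.08.

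Among 18 feedback and autophagy targets of the MiT/TFE factors, 6 fell and none rose, with a list median of -0.30. FLCN, the folliculin gene whose product acts on the lysosomal Rag GTPases, fell by 0.90 (SE 0.10, limma adjusted p 7.06e-06), and its partners FNIP1 and FNIP2 by 0.47 and 0.30. The autophagy receptor gene SQSTM1 fell by 0.61, the coactivator PPARGC1A by 0.76 and the proton pump subunit ATP6V1C1 by 0.31, a call lost in 7 of 24 fits that left out 1 library, up to an adjusted p of 0.0587 without siTFEB/siTFE3; sgKEAP1-2 replicate 2. FLCN in sgKEAP1-2 cells was at -1.27, near the NOS3 value of -1.34 there.

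Around COL1A1, none of the 22 other fibrillar collagen and collagen-processing genes passed with limma, where 6 were higher and 0 lower at an unadjusted p under 0.05, and edgeR called 1 higher and DESeq2 3. The smallest p-values belonged to SPARC (0.35, adjusted p 0.0598), the collagen chaperone SERPINH1 (0.31, adjusted p 0.0605) and PLOD1 (0.22, adjusted p 0.0744), by limma. The list median was 0.08. COL1A2, whose chain pairs with that of COL1A1, was not found among the named genes of the table.

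Of 15 other genes of nitric oxide synthesis, ASS1, which makes the arginine precursor argininosuccinate, fell by 0.63 (SE 0.11, limma adjusted p 0.00114) and the rest did not pass with limma or edgeR, while DESeq2 called 2 others as higher. NOS1 and NOS2 were not found among the named genes of the table. Of 13 other genes of UDP-N-acetylglucosamine synthesis and use, GNPDA1, a glucosamine-6-phosphate deaminase, fell by 0.37 (SE 0.06, limma adjusted p 7.35e-04). Genes of the interferon response, which transfected RNA can raise, gave 0 of 14 by limma, edgeR and DESeq2, with 1 higher and 1 lower at an unadjusted limma p under 0.05 and a median of -0.0029. Both arms of the contrast were transfected with an siRNA pool, so a response common to both pools would not show here. Of 20 genes listed, 14 were tested.

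**Figure D3:**
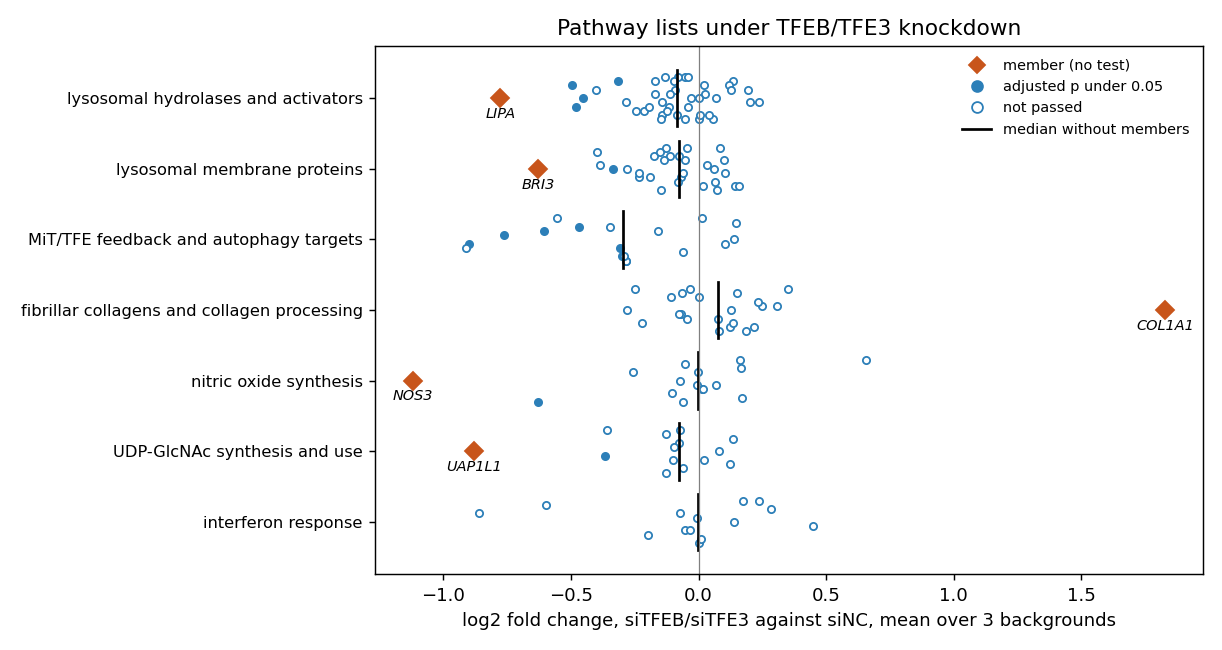
Log2 fold change of siTFEB/siTFE3 against siNC averaged over the 3 backgrounds (horizontal axis) for the genes of 7 lists (rows), with diamonds for the 5 members that belong to a list, filled circles for an adjusted p under 0.05 and a bar for the median without members. COL1A1 lies at 1.83 while its list has a median of 0.08, and the feedback and autophagy targets have the lowest median, -0.30.

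The nearest tested genes on each side of the members gave a local comparison. Of 12 neighbours, XBP1, which lies 5258 bases from CCDC117, fell by 0.21 (SE 0.05, limma adjusted p 0.0271), and this was lost in 9 of 24 fits that left out 1 library. The other neighbour of CCDC117, HSCB, was at 0.17 (adjusted p 0.663). BAIAP2L1, which overlaps BRI3, was at 0.09 (adjusted p 0.626), and IFIT3, which lies within the annotated span of LIPA, at 0.28 (adjusted p 0.797). The closest of those that do not overlap a member, MAN1B1-DT at 407 bases from UAP1L1, was at -0.11 (adjusted p 0.868). The remaining 7 neighbours (TECPR1, FAS, ZNF775, ABCB8, SAPCD2, PPP1R9B and TMEM92) ranged from -0.12 to 0.16 and none passed.

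**Figure D4:**
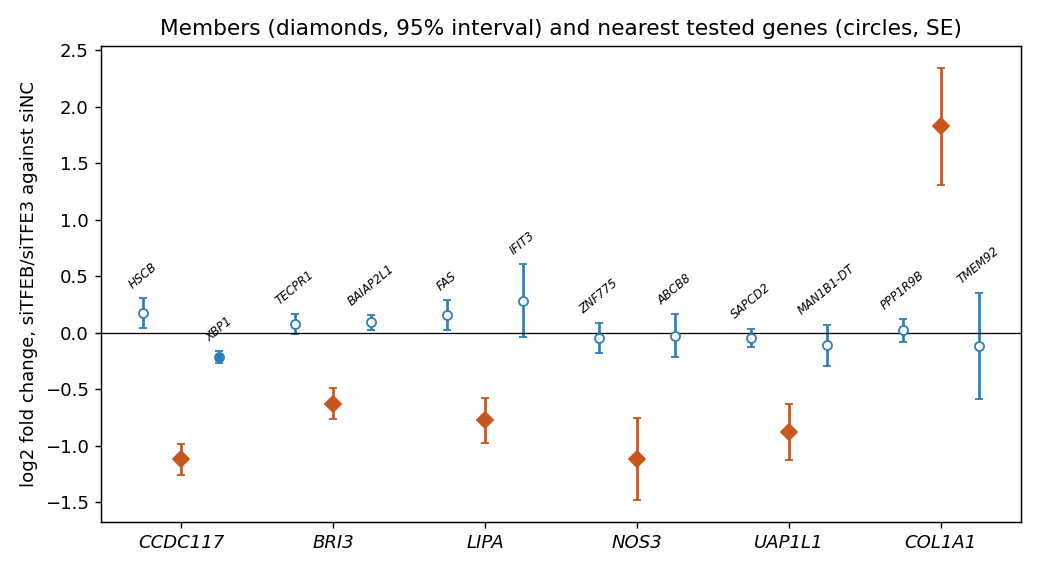
Log2 fold change of siTFEB/siTFE3 against siNC averaged over the 3 backgrounds (vertical axis) for the 6 genes (diamonds, 95% interval) and the nearest tested gene on each side (circles with SE, filled where the adjusted p was under 0.05). Neighbours lie between -0.21 and 0.28, and XBP1 is the filled one.

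Over the 24 libraries, with each background centred on its mean, the members varied with one another. Pearson's r ran from 0.773 (NOS3 with CCDC117) to 0.896 (UAP1L1 with CCDC117) among the 5 members that were lower, and from -0.887 to -0.718 for COL1A1 with each of them. These libraries share the knockdown itself, on which the members were chosen, and the values are descriptive. Among 10538 genes, those most like CCDC117 were TFE3 (r = 0.936), ASAH1 (0.914) and TFEB (0.912), and for UAP1L1 they were CCDC117 (0.896), TFE3 (0.893) and TFEB (0.887). SAT2 (0.943), SSUH2 (0.9) and ERBB3 (0.897) were most like BRI3. FLCN (0.913), CTSB (0.908) and RSL24D1 (0.872) were most like NOS3, and RSL24D1 (0.915), ASS1 (0.901) and FST (0.899) most like LIPA. For COL1A1 the 3 genes were ADAM19 (0.862), ACOT13 (0.828) and the smooth-muscle gene TAGLN (0.823), of which ADAM19 had an averaged change of 1.08 and TAGLN of 0.62.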

How the data were processed

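RNA of HepG2 cells was measured in 24 libraries with the QuantSeq 3′ kit, in which reads fall near transcript ends. The table the authors deposited holds unscaled whole-number read counts per gene, made with cutadapt 1.16, STAR 2.7.5b and featureCounts 1.6.3 per the submitters' processing notes. The study's methods name GRCh37 and the notes name hg38, and the annotation and strand setting are not given in the sources used here. Of 13446 rows, 1414 without a gene ID (1.35% to 2.57% of reads) were left out. Rows of the same ID were summed and IDs with identical counts merged, which left 11927 features. Total reads per library were 3527000 to 4600951, and reads carry no molecular identifier, so they are not independent molecules.

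Counts were filtered with filterByExpr by group (11152 genes left), scaled with TMM factors and tested with limma-voom, the test the study also used, in 1 fit of 6 group means over all libraries. Versions were R 4.3.3 with edgeR 4.0.16 and limma 3.58.1. Tests were two-sided, with Benjamini-Hochberg adjustment over all genes of a contrast and a threshold of 0.05. CPM used the TMM-scaled library size. The fit was tested on simulated data. Alternatives were edgeR quasi-likelihood, DESeq2 1.42.0, RLE factors, no filter, a mean of at least 10 counts, sample quality weights, only the groups compared, a replicate block, both libraries that stood apart left out, and each library left out in turn.

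The members and the gene lists were chosen with earlier results of these data known. Among the members only CCDC117 was tested, and only on the guide effect averaged over siRNAs. The named genes are the members, the targets TFEB, TFE3 and KEAP1, the nearest tested gene on each side, the 5 genes just outside the rule, the 3 genes of highest likeness (log2 CPM with a prior count of 2, genes with a mean of at least 10 counts), paralogs, and the genes of each list that passed in a knockdown contrast, otherwise the 3 of smallest p. 1 such gene is not reported here. GRCh37 coordinates are those of GENCODE, and promoters those of RefSeq on GRCh38.p14.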

Additional observations from a re-analysis of the deposited data

Results flagged for a closer look

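Within each group of 4 libraries, the members' lowest and highest values were compared with the rest by the gap to the nearest library over the group's range, at Dixon's 95% critical value. Of 36 such groups, 2 held a library past it, and chance passes about 1 in 20. CCDC117 read 34.2 CPM in siTFEB/siTFE3; sgKEAP1-1 replicate 1, above the next library at 28.6 CPM and still below every siNC library. UAP1L1 read 14.4 CPM in siNC; sgKEAP1-1 replicate 1, above the next at 10.6 CPM, and this library is 1 of the 2 that stood apart on the second principal component.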

How the results depend on the processing

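The members' knockdown changes kept their direction, and moved by less than the spread between libraries, in all 288 values from fits that left out 1 library and 210 from other alternatives. Of the differences between backgrounds 1 moved by more, LIPA in sgKEAP1-2 minus sgKEAP1-1, from -0.05 to 0.20 without the libraries that stood apart. Leaving out 1 of 4 libraries shifts a group mean by only part of that group's spread. The rule also used the knockdown changes, so their steadiness is a description and no support. Counts of genes past the threshold moved more, and the cause was not tested. For knockdown in sgCtrl, sgKEAP1-1 and sgKEAP1-2 and averaged over them, 2, 10, 40 and 260 genes became 11, 48, 108 and 422 with DESeq2, 10, 52, 106 and 592 with sample quality weights, and 4, 23, 69 and 432 without the libraries that stood apart. With only the groups compared, sgKEAP1-1 gave 1 and sgKEAP1-2 gave 11. Between the KEAP1 guides 13 genes became 46 with DESeq2, 55 with quality weights and 48 with the replicate block. Deviations of same-numbered libraries of a background had r from -0.05 to 0.26, and those of unlike-numbered ones from -0.198 to 0.245. Number 1 gave 0.26, 0.089 and 0.172 and number 3 gave 0.006, 0.017 and 0.173, while numbers 2 and 4 gave both signs. The main fit did not use the numbers, so an effect shared by a number is not removed there. Each number has 1 unexplained column prefix shared by all groups. With the replicate block knockdown in sgCtrl gave 4 genes and in sgKEAP1-1 30. With 1 library left out, counts ranged from 1 to 2 (knockdown in sgCtrl), 3 (without siTFEB/siTFE3; sgKEAP1-1 replicate 2) to 15 (without siNC; sgKEAP1-1 replicate 1) for sgKEAP1-1, 12 (without siNC; sgKEAP1-2 replicate 3) to 29 (without siTFEB/siTFE3; sgKEAP1-2 replicate 3) for sgKEAP1-2, 192 to 345 (averaged), 2049 to 2573 (guide sgKEAP1-1), 3004 to 3593 (guide sgKEAP1-2) and 7 to 21 (between guides). The rule was met by 5 genes with no filter (without LIPA, NOS3 and UAP1L1), by 29 with DESeq2, by 31 with quality weights, by 18 with the replicate block and by 17 without the libraries that stood apart (both without UAP1L1), and by 3 to 12 with 1 library left out. Depth limits COL1A1, NOS3 and UAP1L1 most, at 8, 10 and 16 reads in their lowest library. In the lists, quality weights called 7 hydrolases and 10 feedback targets as lower, against 4 and 6 without weights.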
